A study of Mus musculus with 6 samples.

Results

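The genes described here are 48 genes of DNA replication and mitosis, of 24223 genes counted in the RNA-Seq libraries of a study of T cell differentiation. They were listed by name for their known roles, 24 that act in S phase and 24 that act in G2 and mitosis (G2/M), by a rule that uses no measured value, although earlier results of these data were known when the list was made. All 48 were found and all 48 passed the filter on low counts that kept 13607 genes. The lowest count of any of them in a library was 38, for *Ccne2*.

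The study compared Naive cells, which are CD4+ T cells that have not met antigen, with Th17 and Th1 cells, the helper types that produce IL-17 and IFN-γ. There were 2 biological replicates of each cell type, and no treatment or genotype separated them beyond the culture conditions. Naive cells were CD62L+ CD44- CD4+ cells isolated with magnetic beads from pooled spleens and lymph nodes of C57BL/6 mice aged 1 to 2 months, and were used without culture. The Th17 and Th1 cells came from such Naive cells, activated through CD3 and CD28 and cultured for 5 days. IL-4 was blocked in both cultures. Th17 cultures also received an antibody to IFN-γ with TGF-β, IL-6, IL-1β and IL-23, and Th1 cultures received IL-12 and IL-2. By the study's flow cytometry, only part of the Th17 cells stained for IL-17A and only part of the Th1 cells for IFN-γ. The isolated Naive cells were not fully pure. Each replicate drew on pooled organs, so single animals cannot be followed.

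A resting T cell keeps most of the replication machinery low and rebuilds it after activation. In G1, licensing factors load the MCM helicase on origins while cyclin E releases E2F transcription factors, which switch on the genes of S phase. Later the MuvB complex with B-MYB and FOXM1 switches on genes whose products condense chromosomes, build the spindle and complete division. Genes of this second wave often carry a CHR element (TTTGAA) and CCAAT boxes just before their start, and genes of the first wave often carry an E2F-type site.

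The promoters of the members differed in these elements. RefSeq promoter windows on GRCm38.p6, each of 300 bases around a transcription start, were available for 39 of the 48 members. They comprised 21 windows of 19 S phase genes and 20 windows of 20 G2/M genes. Both strands were searched for the E2F-type words TTTCCCGC, TTTCGCGC, TTTGCCGC and TTTGGCGC, for TTTGAA and for CCAAT. E2F-type words can overlap each other, as they do in *Mcm5* and *Mcm6*. An E2F-type word was found in 9 of the 21 S phase windows (42.9%), in 2 of the 20 G2/M windows (10%) and in 2.26% of all 32851 windows. The CHR word was found in 3 S phase windows (14.3%), in 15 G2/M windows (75.0%) and in 17.9% of all windows. The windows reach past the start. In *Aurka*, *Bub1b*, *Plk1*, *Cenpa*, *Cdca8*, *Kif23* and *Cenpf* the only CHR word began after the start, not before it. A CCAAT box was present in 76.2% of S phase windows, 90.0% of G2/M windows and 37.4% of all windows. These are matches of letters, and binding was not measured. The 160 bases before the start are shown for 3 S phase genes and 3 G2/M genes, chosen to show both kinds of promoter and to include *E2f2* and *Cenpf*, which had the largest fitted change of their classes in Th1 against Naive. Capitals mark the searched words on either strand, and each sequence is read in the direction of transcription.
Mcm5 promoter, chr8:75109349-75109508, forward strand: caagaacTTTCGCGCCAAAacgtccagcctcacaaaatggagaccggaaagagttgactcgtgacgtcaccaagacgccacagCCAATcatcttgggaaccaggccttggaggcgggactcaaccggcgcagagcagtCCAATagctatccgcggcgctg
Mcm6 promoter, chr1:128359706-128359865, reverse strand: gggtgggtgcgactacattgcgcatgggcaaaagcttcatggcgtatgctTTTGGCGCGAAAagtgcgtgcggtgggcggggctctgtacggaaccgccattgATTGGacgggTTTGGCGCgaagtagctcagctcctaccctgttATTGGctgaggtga
E2f2 promoter, chr4:136172114-136172273, forward strand: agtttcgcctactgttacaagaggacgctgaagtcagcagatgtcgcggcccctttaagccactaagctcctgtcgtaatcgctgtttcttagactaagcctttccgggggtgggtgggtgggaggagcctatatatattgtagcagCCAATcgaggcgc
Cenpf promoter, chr1:189688087-189688246, reverse strand: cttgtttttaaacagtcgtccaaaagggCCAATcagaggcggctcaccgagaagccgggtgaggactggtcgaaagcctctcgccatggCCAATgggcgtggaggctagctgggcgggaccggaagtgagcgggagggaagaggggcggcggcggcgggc
Top2a promoter, chr11:99024190-99024349, reverse strand: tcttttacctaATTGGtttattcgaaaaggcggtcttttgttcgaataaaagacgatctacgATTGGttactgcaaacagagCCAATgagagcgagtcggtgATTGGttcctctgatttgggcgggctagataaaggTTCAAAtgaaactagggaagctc
Kif11 promoter, chr19:37376222-37376381, forward strand: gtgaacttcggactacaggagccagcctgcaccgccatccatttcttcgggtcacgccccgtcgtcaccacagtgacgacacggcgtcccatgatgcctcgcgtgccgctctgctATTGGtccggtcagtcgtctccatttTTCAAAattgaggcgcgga

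In *Mcm5* and *Mcm6*, which encode helicase subunits, E2F-type words lay on both strands and overlapped. The *E2f2* stretch shown held only a CCAAT box, and the E2F-type word of that promoter lay 39 bases after the start. Another *E2f2* window, not shown, held 1 CHR word and 3 CCAAT boxes but no E2F-type word. *Top2a*, encoding topoisomerase II alpha, and *Kif11*, encoding the motor that separates spindle poles, held CCAAT boxes followed by a CHR word close to the start. In *Cenpf* the CHR word began 2 bases after the start, outside the stretch shown.

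The libraries held between 17742158 and 69080017 counts, and in each cell type replicate 1 was the deeper library. The labels were checked against fixed marker genes, by their summed CPM (counts as a rate of the library total after TMM scaling). The 6 Th17 markers summed to 1465 and 1915 in Th17 and to at most 48.3 elsewhere, and the 6 Th1 markers to 1669 and 1774 in Th1 and to at most 268 elsewhere. The 6 naive T cell markers did not separate the groups and ranged from 2253 to 4851 over all libraries. Markers of other cell types were also detected. The 12 erythroid markers with a count row summed to 1158 in Naive replicate 1 and 180 in Naive replicate 2, and to between 3.92 and 7.52 in the 4 cultured libraries, with 9, 4 and 0 of the 12 above 10 CPM. The 14 markers of neutrophils and their precursors summed to 3385 and 3236 in Th17, 420 and 243 in Naive, and 39.2 and 51.7 in Th1, with 14 and 13, 4 and 4, and 0 and 1 of the 14 above 10 CPM. The 8 B cell markers stayed between 4.74 and 27.9, the 9 macrophage and dendritic cell markers between 2.02 and 61.4, the 9 mast cell and basophil markers between 50.5 and 372, the 2 CD8 markers between 5.66 and 11.3 and the 5 NK cell markers between 2.88 and 36.7, with *Klra4* at 0 in all libraries. The 10 T cell markers ranged from 3891 to 5926.

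The summed G2/M genes were highest in Th1, while the summed S phase genes overlapped between all cell types. The 24 G2/M genes summed to 1556 and 722 CPM in the Naive replicates, to 1931 and 1607 CPM in Th17 and to 7247 and 2190 CPM in Th1. The 3 groups did not overlap in this sum. Without TMM scaling they did, with sums of 1635 and 784 CPM for Naive, 2105 and 1601 CPM for Th17 and 6783 and 1888 CPM for Th1. The 24 S phase genes summed to 2739 and 1334 CPM in Naive, 2195 and 1975 CPM in Th17 and 4687 and 1643 CPM in Th1, and each group overlapped with the others. In Th1 the members made up as much as 0.439% (S phase) and 0.678% (G2/M) of a library's counts. In RNA from a whole culture, fewer cells in a phase and less RNA per cell cannot be told apart.

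The balance between the classes was steadier than either sum. The G2/M sum divided by the S phase sum was 0.568 and 0.542 in Naive cells, 0.880 and 0.814 in Th17 cells, and 1.55 and 1.33 in Th1 cells. The means were 0.555 ± 0.0186, 0.847 ± 0.0466 and 1.44 ± 0.151 (SD, n = 2 each), so the replicates of a cell type lay close together and the groups apart, although the sums themselves differed up to 3.31-fold between replicates. The smallest two-sided p that an exact permutation of 2 against 2 libraries allows is 0.333, so no test of this ratio is given. The order held without *Top2a* and *Mki67*, the G2/M genes with the highest CPM in Th1, with ratios of 0.434 and 0.380 in Naive cells, 0.635 and 0.593 in Th17 cells, and 1.03 and 0.979 in Th1 cells. It also held with *Ccna2* and *Mybl2* counted as S phase genes, with 0.506 and 0.495, 0.799 and 0.756, and 1.38 and 1.19. When every gene weighed equally, the mean log2 CPM of G2/M genes less that of S phase genes was -0.35 and -0.33 in Naive cells, 0.20 and 0.06 in Th17 cells and 1.01 and 1.04 in Th1 cells. The erythroid and neutrophil markers given above also differed between the cell types, and their part in this ratio was not tested.

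**Figure D1:**
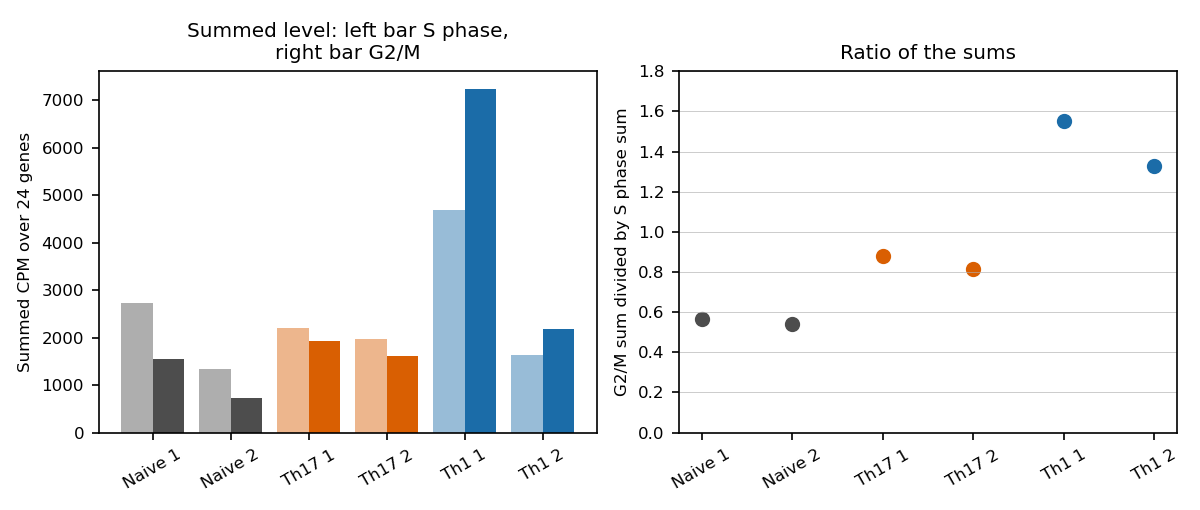
Summed CPM of the 24 S phase genes (pale bars) and the 24 G2/M genes (dark bars) in each library, left, and the G2/M sum divided by the S phase sum in the same libraries, right. Each bar or point is 1 library, and the ratio separates the cell types from 0.542 and 0.568 in Naive to 1.33 and 1.55 in Th1 although the bars of Th1 replicate 1 are far above those of replicate 2.

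The replicates of Naive and of Th1 differed in how much of the whole programme they held. In Th1, all 24 S phase genes and all 24 G2/M genes were higher in replicate 1, with median ratios of replicate 1 to replicate 2 of 3.33 and 3.31. In Naive, 23 S phase and 24 G2/M genes were higher in replicate 1, with median ratios of 2.2 and 2.29. In Th17 the median ratios were 1.20 and 1.18. At least a 2-fold excess in replicate 1 was seen for 22 S phase and 24 G2/M genes in Th1, for 15 and 18 in Naive and for 1 and 2 in Th17, while among all genes tested it was seen for 13.1%, 13.0% and 6.03%. In Naive the excess in replicate 1 went with the larger summed level of erythroid markers given above, whose part in the result was not tested. In Th1 the erythroid and the neutrophil markers each summed to at most 51.7 CPM in either replicate. The naive T cell markers, which did not separate the cell types, summed to 2253 in replicate 1 and 4851 in replicate 2. The part of these markers in the difference between the Th1 replicates was not tested.

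**Figure D2:**
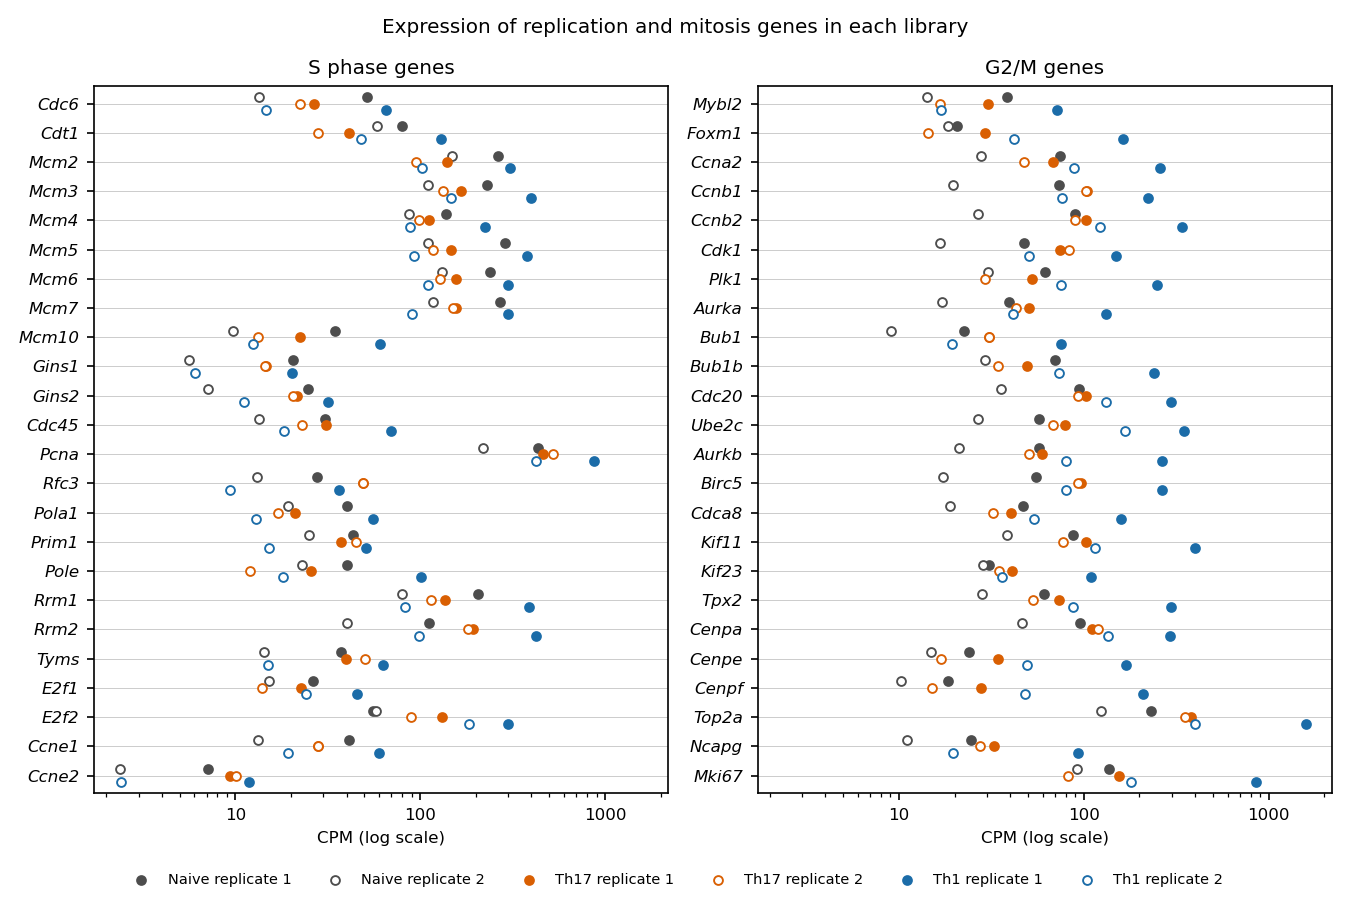
CPM of each of the 48 genes in each of the 6 libraries on a log axis, S phase genes left and G2/M genes right, with filled symbols for replicate 1 and open symbols for replicate 2. Blue filled symbols (Th1 replicate 1) lie to the right in most rows, and in the G2/M panel the open blue symbols also lie to the right of both Naive symbols in 21 of 24 rows.

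For Th1 against Naive, a gene was called when edgeR's quasi-likelihood test gave it an adjusted p below 0.01 and a log2 fold change beyond 1 in either direction. Of the 48 members, 3 were called higher and 0 lower, 1 S phase gene (*E2f2*) and 2 G2/M genes (*Ube2c* and *Cenpf*), against 4.64% of all genes called higher and 2.81% called lower. As a share of its class this was 4.17% of S phase genes, near the level of all genes, and 8.33% of G2/M genes. At an unadjusted p-value under 0.05, 23 of 24 G2/M genes and 3 of 24 S phase genes were higher and 0 members were lower, against 15.7% of all genes higher and 14.3% lower. The DESeq2 test called 15 members higher, 14 of them in G2/M, and 0 lower, against 6.24% and 4.61% of all genes. The members that edgeR called changed with the library left out. Both Th1 libraries lay above both Naive libraries for 21 of 24 G2/M genes and 1 of 24 S phase genes, against 27.6% of all genes, and below them for 0 members, against 28.4%. These counts rest on TMM-scaled CPM. Without the TMM factors, fewer G2/M genes were free of overlap between Th1 and Naive, or between Th1 and Th17. The median log2 fold change was 1.79 over G2/M genes (0.76 to 3.15, all 24 above 0), 0.51 over S phase genes (-0.05 to 2.08) and -0.02 over all genes. Without Th1 replicate 1 the G2/M median was 0.87 and the S phase median changed sign, to -0.73. Of the erythroid markers, 10 lay lower in both Th1 libraries than in both Naive libraries and 0 higher, and of the 14 neutrophil markers, whose sum was lower in Th1, 5 lay lower and 8 higher. The part of these markers in the result was not tested.

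*E2f2* encodes an activating E2F transcription factor and lies at chr4:136172394-136196057. It was at 55.9 and 57.9 CPM in the Naive libraries, 131 and 89.1 CPM in the Th17 libraries, and 299 and 183 CPM in the Th1 libraries. The 3 cell types did not overlap, and the Naive replicates were nearly equal, with a ratio of 0.965 against a median of 2.2 over S phase genes. *E2f2* rose in Th1 against Naive by a log2 fold change of 2.08 ± 0.33 (SE, adjusted p = 0.0025). *E2f1*, its relative, was at 26.4 and 15.2 CPM in the Naive replicates and at 45.8 and 24.2 CPM in those of Th1, with overlapping values and a log2 fold change of 0.75 ± 0.42 (SE, adjusted p = 0.27). The cyclin E gene *Ccne2*, which held 7.12 and 2.38 CPM in Naive cells against 11.8 and 2.40 CPM in Th1 cells, differed less between the groups than between their replicates (0.58 ± 0.69, adjusted p = 0.63).

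*Ube2c* encodes the ubiquitin-conjugating enzyme of the anaphase-promoting complex, which marks mitotic cyclins for destruction. It was at 56.9 and 26.7 CPM in Naive, 79.1 and 67.8 CPM in Th17, and 349 and 167 CPM in Th1, with no overlap between the cell types. It rose in Th1 against Naive by 2.62 ± 0.44 on the log2 scale (SE, adjusted p = 0.0035), and by 6.14-fold and 6.25-fold between libraries of the same replicate number. Its exons at chr2:164769898-164778822 share 592 bases with *Tnnc2* on the opposite strand. The replicate numbers, here and in later ratios by number, were not shown to pair the libraries. *Cenpf*, a large kinetochore and nuclear matrix protein of G2 and mitosis, is encoded at chr1:189640606-189688086 and was at 18.5 and 10.2 CPM in Naive, 27.9 and 15.1 CPM in Th17, and 209 and 48 CPM in Th1. It rose by 3.15 ± 0.63 (SE, adjusted p = 0.0084), 11.3-fold at replicate 1 and 4.68-fold at replicate 2. Without Th1 replicate 1 the log2 fold changes of these 3 genes were 1.73 for *E2f2*, 2.04 for *Ube2c* and 1.78 for *Cenpf*. With library size alone all 3 calls were lost (adjusted p = 0.011 for *E2f2*, 0.011 for *Ube2c* and 0.022 for *Cenpf*), and in a fit of only the 4 libraries compared that of *Cenpf* was lost (adjusted p = 0.012). Leaving out other libraries ended the call of *E2f2* without Naive replicate 1 (adjusted p = 0.018), of *Ube2c* without Naive replicate 2 (adjusted p = 0.012) and of *Cenpf* without Naive replicate 1, Naive replicate 2 or Th17 replicate 1 (adjusted p = 0.024, 0.036 and 0.011).

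The other G2/M genes missed the threshold, and most were higher in both Th1 libraries than in both Naive libraries. *Top2a*, which untangles chromosomes before they separate, was at 230 and 124 CPM in the Naive replicates and at 1590 and 400 CPM in those of Th1, without overlap (log2 fold change 2.49 ± 0.58, adjusted p = 0.016). *Mki67*, the gene of the proliferation antigen Ki-67 that coats mitotic chromosomes, was at 137 and 92.0 CPM in the Naive replicates and at 852 and 181 CPM in those of Th1 (2.18 ± 0.62, adjusted p = 0.039). *Foxm1*, the transcription factor of the second wave, was at 20.6 and 18.4 CPM in the Naive replicates and at 162 and 42.0 CPM in those of Th1 (2.39 ± 0.57, adjusted p = 0.019). The ratio of its Naive replicates was 1.12, against a median of 2.29 over G2/M genes.

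After TMM scaling, cyclin B and its kinase were also higher in both Th1 libraries. Without the TMM factors, *Ccnb1* and *Cdk1* overlapped between Th1 and Naive. *Ccnb1* was at 73.7 and 19.7 CPM in the Naive replicates and at 223 and 76.5 CPM in those of Th1, so the nearest libraries of the groups differed little (1.68 ± 0.60, adjusted p = 0.087). *Cdk1* was at 47.7 and 16.6 CPM in the Naive replicates and at 150 and 50.3 CPM in those of Th1 (1.63 ± 0.55, adjusted p = 0.072). *Plk1*, a mitotic kinase gene, stood at 250 and 75.4 CPM in Th1 against 61.6 and 30.2 CPM in Naive. *Aurkb*, the kinase gene of the chromosomal passenger complex, stood at 266 and 80.5 CPM against 57.0 and 21.1 CPM. Of the G2/M genes, the B-MYB gene *Mybl2*, the checkpoint kinase gene *Bub1* and the condensin gene *Ncapg* overlapped between Th1 and Naive even after TMM scaling.

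Most of the replication machinery overlapped between Th1 and Naive. *Mcm5* was at 287 and 110 CPM in the Naive replicates and at 377 and 93.2 CPM in those of Th1, so Th1 held both the highest and the lowest value (0.24 ± 0.59, adjusted p = 0.83). *Pcna*, the sliding clamp of the DNA polymerases, was at 432 and 218 CPM in the Naive replicates and at 876 and 421 CPM in those of Th1 (1.00 ± 0.42, adjusted p = 0.14). *Rrm2*, the regulated subunit of ribonucleotide reductase, was at 112 and 40 CPM in the Naive replicates and at 421 and 98.9 CPM in those of Th1 (1.78 ± 0.63, adjusted p = 0.084). For *Pcna* and *Rrm2* the lower Th1 library fell just short of the higher Naive library. Set against the library of the same number, 14 of 24 S phase genes and all 24 G2/M genes were higher in Th1 in both replicates, against 34.3% of all genes, and 0 members were lower in both, against 35.1%. The sum of the S phase genes was 1.71-fold and 1.23-fold that of Naive, and the sum of the G2/M genes 4.66-fold and 3.03-fold.

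**Figure D3:**
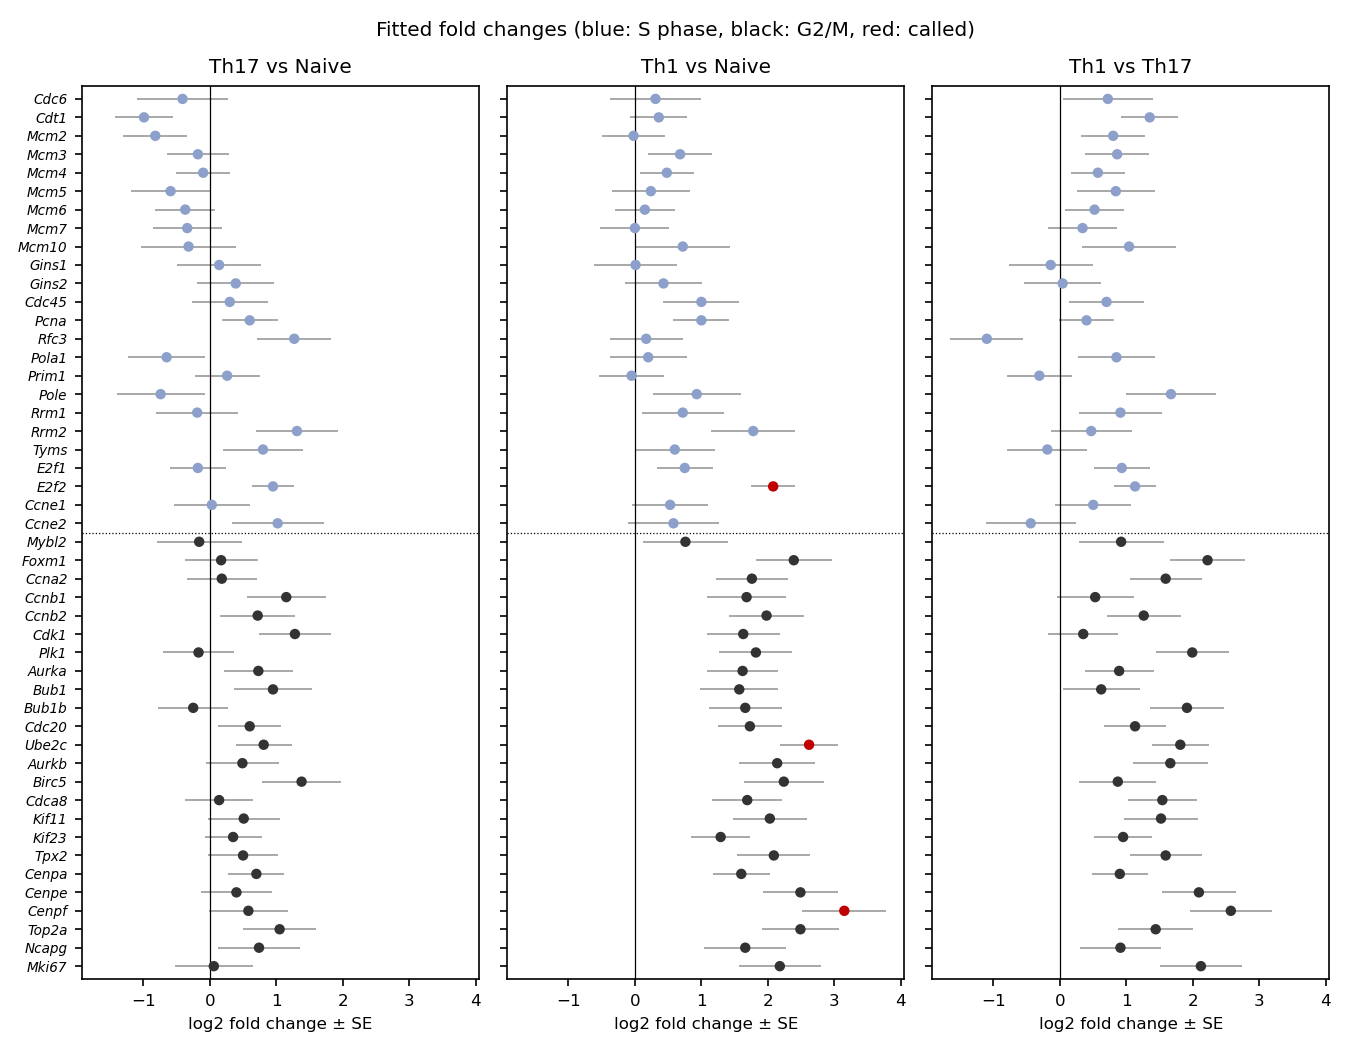
Fitted log2 fold change (point) and standard error (line) of each of the 48 genes in the 3 comparisons, S phase genes above the dotted line in blue and G2/M genes below it in black, with called genes in red. The 3 called genes are *E2f2*, *Ube2c* and *Cenpf* in Th1 against Naive, where all 24 G2/M points lie above 0.

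In Th17 against Naive, 0 members were called by edgeR's quasi-likelihood test, and 0 by DESeq2, against 4.01% of all genes called higher and 1.43% called lower by edgeR and 6.01% and 3.75% by DESeq2. At an unadjusted p-value under 0.05, 4 members were higher (*Rfc3*, *E2f2*, *Cdk1* and *Birc5*) and 1 was lower (*Cdt1*), against 17.2% and 16.1% of all genes. The median log2 fold change was -0.14 over S phase genes, 0.55 over G2/M genes and -0.02 over all genes. The S phase median changed sign without Naive replicate 1, to 0.79. At the replicate numbers, the S phase sum in Th17 was 0.802-fold and 1.48-fold that of Naive, and the G2/M sum 1.24-fold and 2.22-fold. At both numbers, 7 S phase and 17 G2/M genes were higher in Th17, against 35.3% of all genes, and 6 S phase genes and 1 G2/M gene were lower, against 36.2%. The erythroid markers of Naive replicate 1 and the neutrophil precursor markers of Th17 move with this comparison, and their part in it was not tested.

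Within each class the Th17 values fell into different patterns. The licensing factor *Cdt1* was at 79.6 and 58.5 CPM in the Naive replicates and at 41.4 and 27.9 CPM in those of Th17, and the helicase gene *Mcm2* was at 263 and 149 CPM in the Naive replicates and at 139 and 94.8 CPM in those of Th17. Both Th17 libraries lay below both Naive libraries for these 2 S phase genes and above them for 6 (*Pcna*, *Rfc3*, *Rrm2*, *Tyms*, *E2f2* and *Ccne2*), against 33.1% of all genes below and 32.4% above. *Rfc3*, a subunit of the clamp loader, was at 27.6 and 13.1 CPM in Naive, 49.1 and 49.2 CPM in Th17 and 36.2 and 9.35 CPM in Th1. *Rrm2* stood at 194 and 181 CPM and *Pcna* at 464 and 521 CPM in Th17, with log2 fold changes against Naive of 1.31 ± 0.62 (adjusted p = 0.17) and 0.60 ± 0.42 (adjusted p = 0.34). *Mcm5*, at 146 and 117 CPM in Th17, gave -0.59 ± 0.59 (adjusted p = 0.51).

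Among the G2/M genes, 0 lay lower in both Th17 libraries than in both Naive libraries, against 33.1% of all genes. Higher in both were 11 of 24 (45.8%), against 32.4% of all genes. These were *Ccnb1*, *Ccnb2*, *Cdk1*, *Aurka*, *Bub1*, *Ube2c*, *Birc5*, *Kif23*, *Cenpa*, *Top2a* and *Ncapg*. *Cdk1* was at 74.2 and 83.4 CPM and *Ccnb1* at 104 and 103 CPM in Th17, with log2 fold changes of 1.28 ± 0.54 (adjusted p = 0.13) and 1.15 ± 0.59 (adjusted p = 0.20). *Top2a* was at 382 and 353 CPM (1.05 ± 0.55, adjusted p = 0.21). Others overlapped with Naive, among them *Mki67* at 155 and 82.3 CPM (0.06 ± 0.59, adjusted p = 0.96) and *Foxm1* at 29.4 and 14.3 CPM (0.17 ± 0.55, adjusted p = 0.85). *Plk1* at 52.2 and 29.4 CPM and *Bub1b*, a spindle checkpoint kinase gene, at 49.2 and 34.2 CPM also overlapped with Naive.

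**Figure D4:**
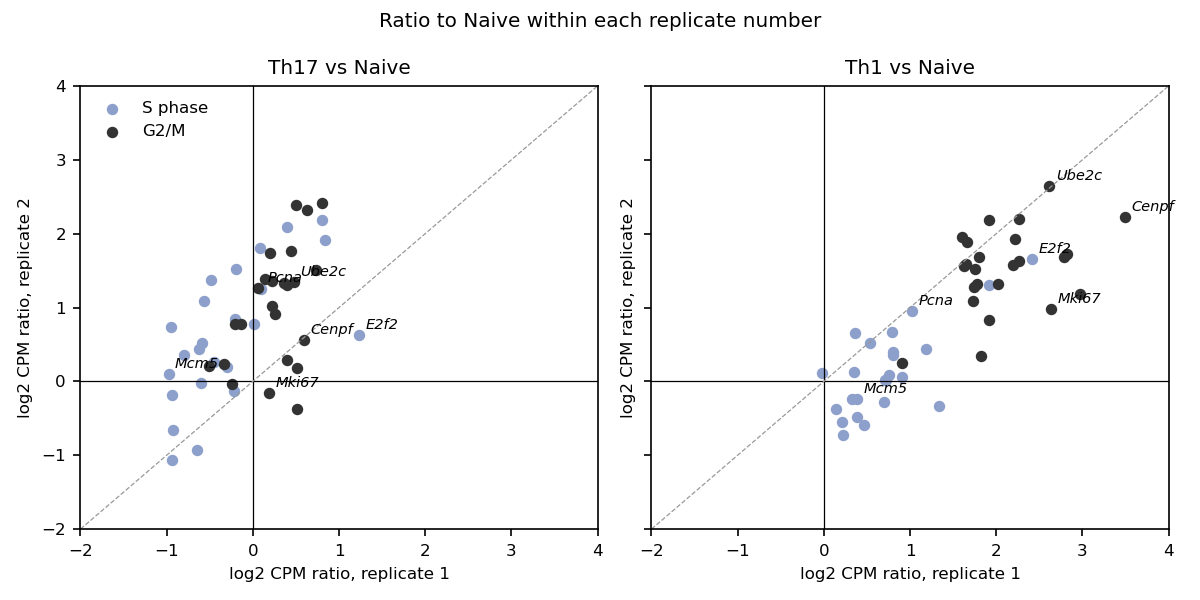
Log2 ratio of CPM to the Naive library of the same replicate number, replicate 1 on the horizontal and replicate 2 on the vertical axis, for Th17 (left) and Th1 (right), with S phase genes in blue, G2/M genes in black and the dashed line at equal ratios. In Th1 all 24 G2/M points lie above 0 on both axes, and in Th17 most points lie above the dashed line. The replicate numbers were not shown to pair the libraries.

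In Th1 against Th17, 0 members were called by edgeR's quasi-likelihood test, against 2.70% of all genes called higher and 2.83% called lower. DESeq2 called 8 members higher, 1 S phase gene and 7 G2/M genes, and 0 lower, against 5.19% and 5.05% of all genes. At an unadjusted p-value under 0.05 in edgeR, 15 G2/M genes and 4 S phase genes were higher, against 17.2% of all genes, and 0 members were lower, against 16.6%. The median log2 fold change was 1.48 over G2/M genes (0.35 to 2.57, all 24 above 0), 0.64 over S phase genes (-1.10 to 1.67) and -0.03 over all genes. Without Th1 replicate 1 these medians were 0.38 over G2/M genes and -0.56 over S phase genes. All 14 neutrophil markers were called lower in Th1 than in Th17, and 7 macrophage and dendritic cell markers and 8 mast cell and basophil markers lay lower in both Th1 libraries. The part of these markers in the result was not tested. Both Th1 libraries lay above both Th17 libraries for 16 G2/M genes, against 31.5% of all genes, and for the S phase genes *Cdt1*, *E2f1* and *E2f2*, and lay below for *Rfc3*, against 35.1% of all genes. At both replicate numbers, 6 S phase and 18 G2/M genes were higher in Th1, against 37.3% of all genes, and 1 S phase gene was lower, against 40.9%. This comparison and the former one share the Th17 libraries, and both comparisons with Naive share the Naive libraries.

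Several G2/M genes that overlapped between Th17 and Naive were higher in both Th1 libraries than in both Th17 libraries. *Cenpf* gave a log2 fold change of 2.57 ± 0.62 (adjusted p = 0.022), *Foxm1* 2.22 ± 0.57 (adjusted p = 0.028) and *Mki67* 2.12 ± 0.62 (adjusted p = 0.044), each without overlap. *Ube2c* (1.81 ± 0.43, adjusted p = 0.021) and the S phase gene *E2f2* (1.13 ± 0.32, adjusted p = 0.039) were higher in both Th1 libraries too. These genes did not overlap between Th17 and Naive. By contrast *Cdk1* (0.35 ± 0.53, adjusted p = 0.67), *Ccnb1* (0.53 ± 0.58, adjusted p = 0.54) and *Rrm2* (0.47 ± 0.61, adjusted p = 0.61) were higher in Th1 replicate 1 than in Th17 and lower in Th1 replicate 2. The G2/M sum in Th1 was 3.75-fold and 1.36-fold that of Th17 at the replicate numbers, and the S phase sum 2.13-fold and 0.832-fold.

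Per kilobase of exon, *Pcna* was the most abundant S phase member in each cell type, at 135 CPM per kb in Naive cells, 205 in Th17 cells and 270 in Th1 cells, and *Ccnb2*, a cyclin B gene, was the most abundant G2/M member, at 37.9, 62.8 and 150 CPM per kb. In Naive the least abundant were *Ccne2* at 1.36 CPM per kb and *Cenpf* at 0.931 CPM per kb.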

How the data were processed

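RNA was measured in 6 libraries, 2 each of Naive, Th17 and Th1. The authors aligned reads to mm10 and counted them per gene, and the deposited values are raw counts for 24223 genes. The submitters' processing notes name HISAT2 2.2.1, HTSeq 0.13.5, StringTie 2.1.7 and DESeq2 1.34.0. The methods describe removal of duplicates and default HTSeq parameters, whereas the supplementary code lacks the former and sets reverse strand. It is not known which settings made the deposited counts, and the counts of any member can depend on them. Exons of 11 members overlap a gene on the opposite strand and those of 3 a gene on the same strand.

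Tests used edgeR 4.0.16 and limma 3.58.1 under R 4.3.3. filterByExpr kept 13607 genes, and TMM factors ranged from 0.862 to 1.09. All libraries entered a single quasi-likelihood model of cell type, with Benjamini-Hochberg adjustment over all genes tested. The p-values set each difference between cell types against a spread between replicates. That spread was estimated over all cell types together, with information shared across genes. Reads are not independent molecules, so depth describes counting error only. Replicates of each cell type differed by more than sampling noise. Gene models came from GENCODE vM21 (GRCm38) and promoters from RefSeq.

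Members, marker lists and tests were chosen with earlier results of these data known. Statistics are given for every called member and for *Pcna*, *Mcm5*, *Rrm2*, *Mki67*, *Top2a*, *Cdk1*, *Ccnb1*, *E2f1*, *Ccne2* and *Foxm1*. Other members are given by values or counts, and genes outside the list only where 5 or fewer of a list were called. Alternatives were DESeq2 1.42.0, RLE factors, library size alone, no filter, a minimum of 10 counts in each library, a block for the replicate number, a fit of the 4 libraries compared, counts thinned to the smallest total, a threshold of 0.05 and leaving out each library.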

Additional observations from a re-analysis of the deposited data

How the results depend on the processing

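The number of members called depended on the setting. Main counts were 0 for Th17 against Naive, 3 for Th1 against Naive and 0 for Th1 against Th17. Without a filter on low counts they were 5, 25 and 18, all higher, where 6.74%, 7.21% and 6.66% of all genes were called higher. DESeq2 and an adjusted p-value under 0.05 each gave 15 in Th1 against Naive and 8 in Th1 against Th17, and the latter threshold called 8.73% and 7.61% of all genes higher. Library size alone gave 0 in Th1 against Naive (2.93% of all genes), and there the median of all genes shifted by -0.25 and that of G2/M members was 1.58. In a fit of only the 4 libraries compared, 1 member was called in Th1 against Th17 (3.53% of all genes). The cause of these changes was not tested. The replicate numbers were not shown to pair the samples (correlations of deviations -0.23, 0.17 and 0.08), and with the replicate block 20 members were called in Th1 against Naive, 7 in Th1 against Th17 and 0 in Th17 against Naive, all higher, against 6.17%, 3.62% and 5.19% of all genes. The block gave *Mki67* -0.02 in Th17 against Naive.

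When each library was left out, the lone library was assumed to vary like the other groups, so effect sizes are given here. The members called changed with the library left out in Th1 against Naive and in Th1 against Th17. The S phase median of Th17 against Naive ranged from -0.55 to 0.79, that of Th1 against Naive from -0.73 to 1.34 and that of Th1 against Th17 from -0.56 to 1.25, while the G2/M medians stayed above 0 (0.09 to 1.27, 0.87 to 2.59 and 0.38 to 2.13). Single genes changed sign in Th17 against Naive (*Mcm5* -1.13 to 0.26, *Mki67* -0.47 to 0.44, *E2f1* -0.58 to 0.27, *Foxm1* -0.45 to 0.59), in Th1 against Naive (*Mcm5* -1.04 to 1.09, *Ccne2* -0.95 to 1.60) and in Th1 against Th17 (*Pcna* -0.23 to 0.84, *Mcm5* -0.50 to 1.53, *Rrm2* -0.93 to 1.18, *Cdk1* -0.65 to 0.94, *Ccnb1* -0.44 to 1.12, *Ccne2* -2.03 to 0.28). Of 585 single values compared, 508 kept direction and side of the threshold, 12 lost a call, 49 gained one and 16 changed sign. The single values were those of the called members and of the other genes given with statistics, not of all members. Thinned to the smallest library, 0 members were called in Th17 against Naive, 3 in Th1 against Naive and 0 in Th1 against Th17. Of all genes, 4.23%, 4.57% and 2.78% were then called higher. In the main fit, 48.8% of all genes called in Th1 against Th17 were higher in Th1, and 36.6% with library size alone.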

Other observations

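Further genes of the same processes, taken from fixed lists that exclude the 48 members, were read in the same model. Of 45 other replication genes, such as origin recognition, polymerase δ and RPA subunits, 0 were called by edgeR in any comparison, and their median log2 fold changes were 0.01 in Th17 against Naive, 0.22 in Th1 against Naive and 0.31 in Th1 against Th17. At an unadjusted p-value under 0.05, 4.44% of them were higher in Th1 than in Naive and 0.00% lower, against 15.7% and 14.3% of all genes. Of the 61 other mitosis genes with a count row, 60 had a value above 0 in Th1 against Naive, with a median of 1.76, and 3 were called higher (4.92%, against 4.64% of all genes). These were *Cep55*, *Cdc25b* and *Depdc1b*. At an unadjusted p-value under 0.05 in edgeR, 46 of the 61 (75.4%) were higher and 0 lower, against 15.7% and 14.3% of all genes. *Cdc25b*, a phosphatase that activates CDK1, was at 74.0 and 88.1 CPM in Naive, 109 and 77.9 CPM in Th17 and 405 and 427 CPM in Th1, and was also called in Th1 against Th17, where the median of the list was 1.26. Unlike the members, *Cdc25b* was not higher in Th1 replicate 1 than in replicate 2. Of 16 genes of E2F factors, pocket proteins and the MuvB complex, 0 were called by edgeR in any comparison, and 12.5% were higher and 6.25% lower in Th1 than in Naive at an unadjusted p-value under 0.05, both below the shares of all genes just given.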
